A study of Mus musculus with 16 samples.

Results

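The 8 genes described here encode neurotrophins, their receptors and close partners: the ligands Bdnf and Ntf3, the receptors Ntrk2, Ntrk3 and Ngfr, the sorting receptor Sort1, and the secreted or membrane-anchored growth factors Vgf and Nrn1. They were chosen by gene name from the 48709 genes of the count table, and all 8 were present and passed the filter on low counts in every comparison. RNA was sequenced from cerebral cortex of C57BL/6 mice without any treatment or engineered allele. The groups were synaptosomes (SYN), a membrane fraction enriched in detached nerve endings and the postsynaptic material stuck to them, at 3 weeks, 5 months and 19 months, and total homogenate (TH), the unfractionated cortex, at 5 months. Each group had 4 libraries that the labels call biological replicates. Whether a library came from 1 mouse or from pooled mice is not given in the sources used here.

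Neurotrophins are secreted as proforms that are cleaved to mature dimers. Mature BDNF acts through TrkB, the tyrosine kinase encoded by Ntrk2, and mature NT-3, the product of Ntf3, acts mainly through TrkC, encoded by Ntrk3. Proforms bind p75NTR, encoded by Ngfr, together with sortilin, encoded by Sort1. In cortex BDNF and TrkB are best known for regulating synaptic strength and dendritic growth, and both Trk genes also give truncated receptors that lack the kinase domain; truncated TrkB is abundant in astrocytes.

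Junctions of Ntrk2, Ntrk3 and Sort1 tell forms of their products apart. The sequences below show where the forms part, since intron usage at these junctions was compared between ages. They are transcript sequences of GENCODE vM21 on build GRCm38.p6. In the Trk pairs, the 20 lower-case bases end the exon that both forms share and the 38 capitals begin the exon that differs; for truncated Ntrk2 the capitals run to the end of its stop codon. The truncated Ntrk2 exon begins at chr13:58932023-58932060 and the kinase form's at chr13:58985802-58985839, on the plus strand. The Ntrk3 exon of the form without kinase begins at chr7:78304389-78304426 and the kinase form's at chr7:78260377-78260414, on the minus strand.
Ntrk2 truncated: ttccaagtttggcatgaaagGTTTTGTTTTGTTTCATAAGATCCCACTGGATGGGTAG
Ntrk2 full-length: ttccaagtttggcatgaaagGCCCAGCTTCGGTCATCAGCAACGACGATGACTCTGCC
Ntrk3 truncated: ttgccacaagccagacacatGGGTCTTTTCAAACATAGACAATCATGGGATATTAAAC
Ntrk3 full-length: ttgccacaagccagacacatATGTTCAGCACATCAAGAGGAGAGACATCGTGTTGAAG

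3 further exons can be skipped, and each is printed whole in capitals. The long Ntrk3 insert at chr7:78229487-78229561 has 75 bases and the short insert at chr7:78204103-78204144 has 42, both inside the part that codes for the kinase. The Sort1 cassette exon at chr3:108355472-108355570 has 99 bases and lies near the end of the coding region, on the plus strand.
Ntrk3 long insert: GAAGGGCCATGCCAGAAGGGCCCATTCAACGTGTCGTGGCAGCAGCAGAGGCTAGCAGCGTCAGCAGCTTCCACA
Ntrk3 short insert: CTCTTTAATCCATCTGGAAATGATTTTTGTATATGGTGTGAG
Sort1 cassette: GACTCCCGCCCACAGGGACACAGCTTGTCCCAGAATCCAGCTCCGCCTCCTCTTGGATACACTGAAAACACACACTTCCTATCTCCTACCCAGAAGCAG

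Libraries held between 10.6 and 21.7 megacounts. Mitochondrial rRNAs took 42.6% to 51.7% of them in 3 weeks SYN, 36.1% to 45.3% in 5 months SYN, 32.9% to 52.3% in 19 months SYN and 17.6% to 22% in 5 months TH. A pair of libraries stood apart: 5 months SYN replicate 4 had the highest level of the nuclear RNA Malat1 among SYN libraries, 4812 CPM (counts scaled to a common library size) against 946.4 to 1457 in the others of its group, and 19 months SYN replicate 1 had the highest mitochondrial rRNA share. Between 5 months SYN and 5 months TH, 24.5% of all genes tested were called higher in SYN and 25.6% lower, and the marker counts stand beside these shares. Of 8 neuron markers, 5 were higher in SYN and 1 was lower. All 8 astrocyte, all 6 oligodendrocyte precursor, all 8 microglia and 5 of 7 myelin markers were higher, while 6 of 6 nuclear RNAs and 7 of 8 endothelial and mural markers were lower. Interneuron markers were mixed, with 2 of 6 higher and 2 lower, and 0 of 5 tested meningeal fibroblast markers were called. The summed neuron markers were 9306 to 11210 CPM in 5 months SYN and 5241 to 5734 CPM in 5 months TH, and the summed nuclear RNAs 1344 to 6495 CPM in 5 months SYN and 19950 to 24030 CPM in 5 months TH. No list of markers had a gene at 0 in every library of a group. The part of these shifts in the results below was not tested.

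Per kilobase of annotated exon, Vgf, Sort1 and Ntrk2 were the most abundant of the 8 genes in 5 months SYN. That length covers the annotated exons of a gene and not 1 transcript, so the order depends on it. It was 30170 bases for Ntrk3 and 13806 for Ntrk2, against 1766 for Nrn1. In CPM without this division, the means in 5 months SYN were 675.7 for Ntrk2, 441.5 for Sort1, 258.7 for Ntrk3, 177.1 for Vgf and 54.43 for Nrn1. In CPM per kilobase of annotated exon (mean ± SD, n = 4), Vgf stood at 59.6 ± 5.88, Sort1 at 58.3 ± 4.34, Ntrk2 at 48.9 ± 2.199 and Nrn1 at 30.8 ± 2.71. Ntrk3 followed at 8.57 ± 0.737, Bdnf at 3.48 ± 0.818, Ngfr at 1.70 ± 0.353 and Ntf3 at 0.789 ± 0.244. Vgf and Sort1 differed by less than their spread, and each later step in this order was larger than the SDs on both sides. In 5 months TH the order was different and was led by Nrn1 at 34.1 ± 3.601 CPM per kilobase, ahead of Sort1 at 28.9 ± 2.92, Ntrk2 at 27.8 ± 1.14 and Vgf at 15.6 ± 1.66. There Nrn1 and Sort1 lay within their joint spread, as did Sort1 and Ntrk2. Ntrk3 at 6.03 ± 0.102 and Bdnf at 2.04 ± 0.201 came next, and Ngfr at 0.657 ± 0.178 and Ntf3 at 0.527 ± 0.161 overlapped. The receptors of mature BDNF and of mature NT-3 were thus both well above their ligands in every group, and the ligands rested on few reads: 183 to 482 counts per library for Bdnf and 13 to 52 for Ntf3.

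In 3 weeks SYN, Nrn1 at 63.0 ± 12.9 CPM per kilobase and Vgf at 60.4 ± 11.7 had the highest means, followed by Ntrk2 at 48.2 ± 3.25 and Sort1 at 47.5 ± 9.24, and each of these 4 genes lay within the joint spread of its neighbours in this order. The mean of Ntf3, 1.27 ± 0.441, was above that of Ngfr, 0.812 ± 0.108, by less than their joint spread at that age, and below it at 5 and 19 months. In 19 months SYN, Vgf stood at 70.1 ± 10.3, Sort1 at 59.0 ± 6.56, Ntrk2 at 51.0 ± 2.25 and Nrn1 at 34.2 ± 2.92 CPM per kilobase. Ntrk3, Bdnf, Ngfr and Ntf3 followed there at 9.19 ± 1.02, 3.49 ± 0.907, 1.47 ± 0.359 and 0.897 ± 0.108.

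**Figure D1:**
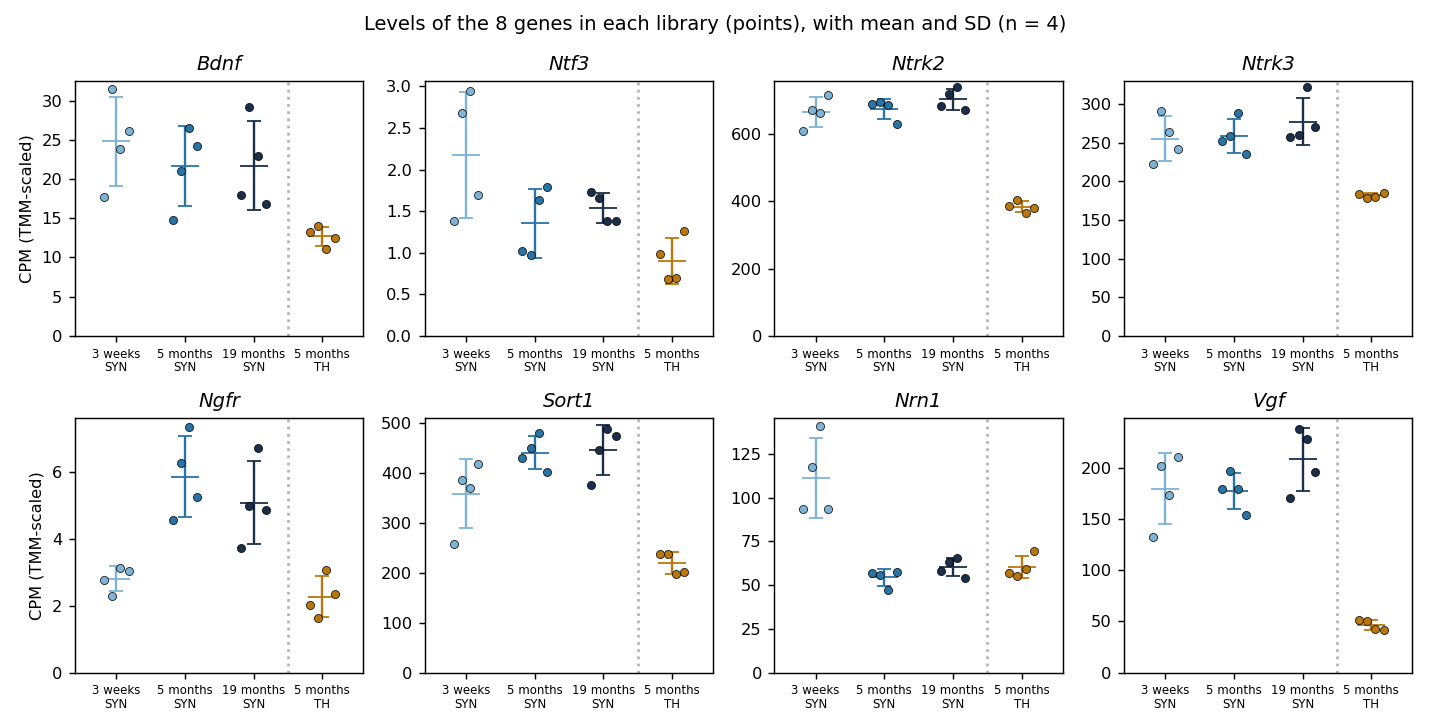
Level of each of the 8 genes in CPM (linear axis from 0, scaled by TMM over 16 libraries) in SYN at 3 weeks, 5 months and 19 months and in TH at 5 months, to the right of the dotted line; points are libraries, bars the mean and SD of 4. Vgf lay between 153.9 and 196.4 CPM in 5 months SYN and between 41.65 and 51.1 CPM in TH, while Nrn1 was high at 3 weeks, at 93.31 to 141 CPM.

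Setting SYN against TH at 5 months asked which of these RNAs made up a larger share of the synaptic fraction than of whole cortex. Of the 8 genes, 6 were higher in SYN, 0 were lower and 2 did not pass the test (edgeR quasi-likelihood test, Benjamini-Hochberg adjusted p under 0.05); at an unadjusted p under 0.05, and by DESeq2, 0 were lower as well. Over all 17374 genes tested, 50.1% were called, 24.5% higher and 25.6% lower in SYN, and the median log2 fold change was -0.05. The 6 genes called were also those whose SYN and TH libraries did not overlap. The share of all genes without overlap is not given here, so this describes the same values and adds no support to the calls. In bulk fractions, fewer cells of a type and less RNA per cell cannot be told apart.

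Among the ligands, Bdnf was higher in SYN. Bdnf (chr2:109674700-109727007, plus strand) had 14.8, 21.1, 26.6 and 24.2 CPM in 5 months SYN replicates 1 to 4, against 13.2, 14.0, 11.1 and 12.5 CPM in 5 months TH. The lowest SYN library lay just above the highest TH library, and the SYN libraries spread more widely than the TH ones. The log2 fold change was 0.78 (SE 0.163, edgeR adjusted p = 0.00102), a 1.72-fold difference.

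Ntf3 (chr6:126101412-126166910, minus strand), the NT-3 gene, had 1.02, 0.971, 1.63 and 1.79 CPM in 5 months SYN and 0.982, 0.683, 0.691 and 1.26 CPM in 5 months TH. The groups overlapped. Its log2 fold change of 0.60 had a 95% interval of -0.37 to 1.56 (edgeR adjusted p = 0.294). The interval includes 0 and reaches further above it than below, so a higher level in SYN was neither shown nor excluded. These libraries held 13 to 38 counts of Ntf3 each.

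Vgf, a neurotrophin-inducible gene whose product is cut into secreted neuropeptides, differed most of the 8. Vgf (chr5:137026392-137033351, plus strand) had 179, 196, 179 and 154 CPM in 5 months SYN and 51.1, 50.02, 42.4 and 41.6 CPM in 5 months TH. Every SYN library was far above every TH library. The log2 fold change was 1.95 (SE 0.0952, edgeR adjusted p = 1.20e-09), or 3.85-fold.

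Nrn1, which encodes neuritin, an activity-regulated protein held on the cell surface by a lipid anchor, was the exception among the abundant genes. Nrn1 (chr13:36725625-36734477, minus strand) had 57.1, 55.8, 47.3 and 57.5 CPM in 5 months SYN and 57.0, 55.3, 59.1 and 69.5 CPM in 5 months TH, and the groups overlapped. The log2 fold change was -0.13 (95% interval -0.33 to 0.07, edgeR adjusted p = 0.258). With upper-quartile scaling in place of TMM it was -0.28 and was called lower (edgeR adjusted p = 0.0247).

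Among the receptors, Ntrk2 (chr13:58806596-59133970, plus strand) had 689, 697, 687 and 631 CPM in 5 months SYN and 386, 405, 367 and 380 CPM in 5 months TH. All 4 SYN libraries were well above all 4 TH libraries, with 0.82 as the log2 fold change (SE 0.0685, edgeR adjusted p = 1.72e-07). The 8 astrocyte markers, of which all were higher in SYN with a median log2 fold change of 1.14, summed to 6574 to 7617 CPM in SYN and 2870 to 3437 CPM in TH. Since astrocytes are a known source of truncated TrkB, these values stand beside the Ntrk2 result; their part in it was not tested.

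Ntrk3 (chr7:78175959-78738012, minus strand) had 252, 258, 289 and 235 CPM in 5 months SYN and 184, 179, 179 and 185 CPM in 5 months TH. The groups did not overlap, and the difference was the smallest of the 6 called, a log2 fold change of 0.52 (SE 0.0742, edgeR adjusted p = 4.01e-05). The ratio of Ntrk2 counts to Ntrk3 counts, which is not corrected for transcript length, was 2.62 ± 0.163 in SYN at 5 months, against 2.11 ± 0.101 in TH (mean ± SD, n = 4 each). This ratio ranged over 2.38 to 2.73 in SYN and 2.04 to 2.26 in TH.

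Ngfr (chr11:95568818-95587735, minus strand), the p75NTR gene, was a low transcript in cortex with a larger estimated fold than either Trk gene. It had 4.55, 6.28, 7.33 and 5.25 CPM in 5 months SYN, on 58 to 90 counts, and 2.02, 1.62, 3.07 and 2.35 CPM in 5 months TH, on 37 to 80 counts. All SYN libraries were above all TH libraries, and the log2 fold change was 1.37 (SE 0.267, edgeR adjusted p = 0.000597).

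Sort1 (chr3:108284082-108361511, plus strand), which also sorts proBDNF toward regulated secretion, had 431, 451, 481 and 403 CPM in 5 months SYN and 238, 239, 198 and 202 CPM in 5 months TH. The lowest SYN library exceeded the highest TH library by a wide gap, and the log2 fold change was 1.02 (SE 0.0862, edgeR adjusted p = 2.06e-07), or 2.03-fold. All 6 calls were kept when any 1 library was left out, and 3 of the 6 (Vgf, Ngfr and Sort1) reached a fold of 2. The share of all genes at that fold is not given here, so the 3 cannot be set against it.

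**Figure D2:**
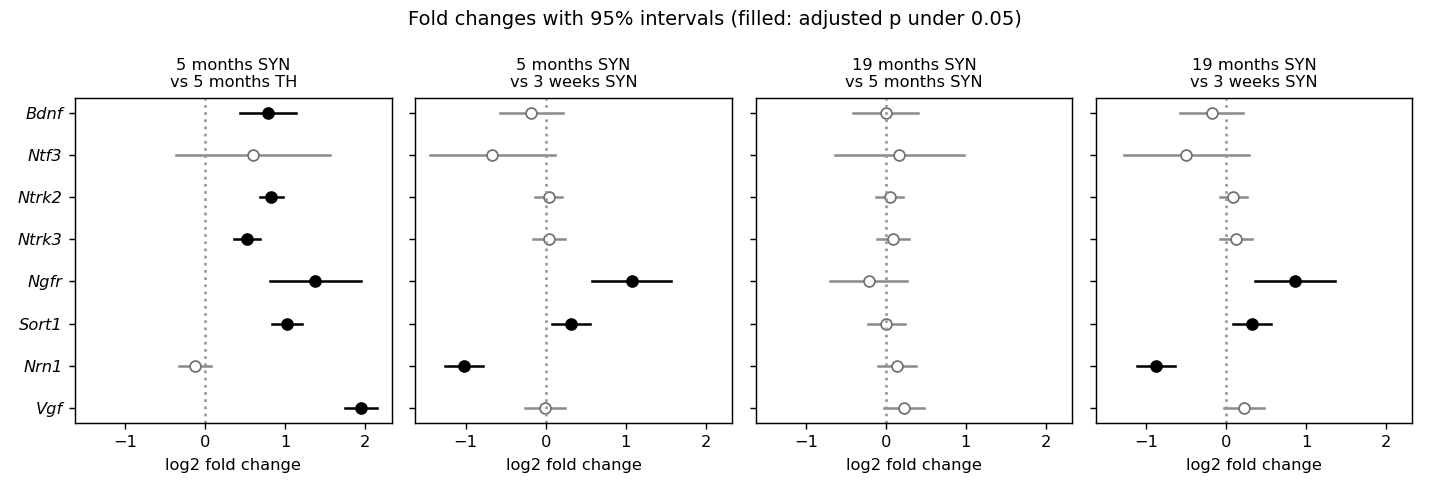
Log2 fold change (points) with 95% interval (lines) for the 8 genes in each comparison, the group named first over the group named second; filled points have an edgeR adjusted p under 0.05. Vgf has the largest change of SYN over TH, at 1.95, Ngfr and Nrn1 move in opposite directions between 5 months and 3 weeks, and no point is filled for 19 months over 5 months.

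The comparison of 5 months with 3 weeks SYN asked which RNA shares of the synaptosome fraction differed between the juvenile and the adult cortex. Ngfr and Sort1 were higher at 5 months, Nrn1 was lower, and the other 5 genes did not pass the test. Over all 15344 genes tested, 24.6% were called, 13.3% higher and 11.3% lower. With only 8 genes, 2 higher and 1 lower are too few to read as a difference from these shares.

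Nrn1 had 93.6, 117, 141 and 93.3 CPM in 3 weeks SYN, 57.1, 55.8, 47.3 and 57.5 CPM in 5 months SYN, and 58.1, 63.4, 65.6 and 54.2 CPM in 19 months SYN. Every 3 weeks library was above every library of the later ages, which overlapped each other. At 5 months the level was 54.4 ± 4.78 CPM, against 111 ± 22.8 CPM at 3 weeks (mean ± SD, n = 4 each), a log2 fold change of -1.02 (SE 0.116, edgeR adjusted p = 3.20e-07).

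Ngfr changed in the other direction. It had 2.77, 2.29, 3.12 and 3.02 CPM in 3 weeks SYN, on 34 to 55 counts, 4.55, 6.28, 7.33 and 5.25 CPM in 5 months SYN, and 3.73, 4.98, 6.73 and 4.86 CPM in 19 months SYN. The 3 weeks libraries were all below those of both later ages, and the log2 fold change of 5 months over 3 weeks was 1.07 (SE 0.242, edgeR adjusted p = 0.00168).

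Sort1 differed less. It had 259, 387, 371 and 419 CPM in 3 weeks SYN, 431, 451, 481 and 403 CPM in 5 months SYN, and 377, 447, 488 and 475 CPM in 19 months SYN. The groups overlapped, and replicate 1 of 3 weeks SYN was far below the other 3 of its group. The log2 fold change of 5 months over 3 weeks was 0.31 (SE 0.114, edgeR adjusted p = 0.0455). The call was lost without 3 weeks replicate 1 (log2 fold change 0.19, edgeR adjusted p = 0.114), 3 weeks replicate 3 (0.33, 0.0783), 5 months replicate 1 (0.33, 0.0612), 5 months replicate 2 (0.30, 0.0904) or 5 months replicate 3 (0.27, 0.136), and in fits on only the 8 libraries compared (adjusted p = 0.0543) or on all 16 (adjusted p = 0.0637).

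The Trk receptors and Bdnf were close in level at both ages. Ntrk2 ranged over 608 to 718 CPM at 3 weeks, 631 to 697 CPM at 5 months and 674 to 740 CPM at 19 months, and the 95% interval of the log2 fold change of 5 months over 3 weeks was -0.13 to 0.21. For Ntrk3, at 223 to 291, 235 to 289 and 257 to 322 CPM at the 3 ages, that interval was -0.16 to 0.24. Bdnf, at 17.8 to 31.5, 14.8 to 26.6 and 16.8 to 29.1 CPM, had an interval of -0.58 to 0.22. Vgf had 133, 202, 174 and 210 CPM at 3 weeks and 171, 238, 228 and 196 CPM at 19 months, and its interval for 5 months over 3 weeks was -0.26 to 0.25. These intervals allow moderate differences of either sign.

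Ntf3 had its highest mean at 3 weeks without passing the test. It had 1.38, 2.68, 2.95 and 1.69 CPM in 3 weeks SYN, 1.02, 0.971, 1.63 and 1.79 CPM in 5 months SYN, and 1.73, 1.66, 1.38 and 1.38 CPM in 19 months SYN, all overlapping. The log2 fold change of 5 months over 3 weeks was -0.67 (95% interval -1.45 to 0.11, edgeR adjusted p = 0.213).

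Markers of other cells moved between these ages too. At 5 months 7 of 7 myelin markers were lower than at 3 weeks, at summed levels of 2227 to 2765 CPM against 7191 to 10030 CPM. All 6 oligodendrocyte precursor markers were lower as well, at 153.8 to 173 CPM against 350.1 to 399.1 CPM, and so were 3 of 6 meningeal fibroblast markers, at 57.78 to 105.7 CPM against 126.7 to 196.3 CPM. Of the 6 nuclear RNAs, 4 were higher at 5 months, at 1344 to 6495 CPM against 616.5 to 906.3 CPM. Without 5 months SYN replicate 4, where the nuclear RNAs were highest, the log2 fold changes were 1.12 for Ngfr and -1.05 for Nrn1; the other 3 libraries at 5 months, with 1344 to 1963 CPM of nuclear RNAs, still lay above all 3 weeks libraries. Of the microglia markers 3 of 8 were higher, at summed levels of 176.2 to 210.3 CPM at 5 months against 125.2 to 183.8 CPM at 3 weeks, and 2 of 6 tested endothelial and mural markers and 3 of 8 neuron markers were higher too. Of the neuron markers 1 was lower, as were 2 of 8 astrocyte markers, and 1 of 6 interneuron markers was higher and 1 lower. The part of these shifts in the results for Ngfr, Sort1 and Nrn1 was not tested.

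Between 19 and 5 months SYN, none of the 8 genes was called by edgeR or by DESeq2, and 0 had an unadjusted p under 0.05 in edgeR. Of all genes tested 0.300% were called, 0.130% higher and 0.169% lower. Vgf had the smallest p, at 208 ± 30.8 CPM at 19 months and 177 ± 17.5 CPM at 5 months (mean ± SD, n = 4 each), with overlapping libraries and a log2 fold change of 0.22 (95% interval -0.03 to 0.48, edgeR adjusted p = 0.426). The intervals of the other 4 abundant genes were -0.12 to 0.22 for Ntrk2, -0.11 to 0.29 for Ntrk3, -0.23 to 0.24 for Sort1 and -0.10 to 0.38 for Nrn1. Those of the 3 scarcer genes were wider, -0.41 to 0.40 for Bdnf, -0.70 to 0.27 for Ngfr and -0.64 to 0.98 for Ntf3.

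Between 19 months and 3 weeks SYN, which uses the same 3 weeks libraries as the comparison above, Ngfr and Sort1 were higher and Nrn1 was lower at 19 months. Over all genes tested, 19.4% were called, 10.0% higher and 9.44% lower. Nrn1 averaged 60.3 ± 5.16 CPM at 19 months and 111 ± 22.8 CPM at 3 weeks, a log2 fold change of -0.88 (SE 0.116, edgeR adjusted p = 3.52e-06). Ngfr averaged 5.08 ± 1.24 CPM at 19 months and 2.80 ± 0.373 CPM at 3 weeks, a log2 fold change of 0.86 (SE 0.246, edgeR adjusted p = 0.0135). The Ngfr call was lost without 19 months replicate 3, with 0.70 and edgeR adjusted p = 0.0726.

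Sort1 averaged 447 ± 49.6 CPM at 19 months and 359 ± 69.9 CPM at 3 weeks, with overlapping libraries and a log2 fold change of 0.32 (SE 0.114, edgeR adjusted p = 0.0490). This call was lost without 3 weeks replicate 1 (log2 fold change 0.20, edgeR adjusted p = 0.108), 3 weeks replicate 3 (0.34, 0.0852), 19 months replicate 2 (0.32, 0.1003), 19 months replicate 3 (0.27, 0.152) or 19 months replicate 4 (0.29, 0.137), and in fits on the 8 or all 16 libraries (adjusted p = 0.0654 and 0.0611). The remaining 5 genes did not pass the test, with log2 fold changes between -0.50 for Ntf3 and 0.22 for Vgf. Cell markers differed between 19 months and 3 weeks as well, where 10.0% of all genes tested were higher and 9.44% lower. All 7 myelin markers were lower at 19 months, at summed levels of 2219 to 3108 CPM against 7191 to 10030 CPM, and so were 5 of 6 oligodendrocyte precursor markers, at 154.1 to 180.5 CPM against 350.1 to 399.1 CPM. Of the meningeal fibroblast markers 3 of 6 were lower, while 4 of 8 microglia markers were higher, at 214.1 to 339.7 CPM at 19 months against 125.2 to 183.8 CPM at 3 weeks. Of 8 neuron markers 2 were higher and 1 was lower, of 8 astrocyte markers 1 was higher and 2 were lower, and of 6 interneuron markers 1 was higher. The nuclear RNAs summed to 1405 to 2223 CPM at 19 months against 616.5 to 906.3 CPM at 3 weeks, though the 6 did not pass the test one by one, and the endothelial and mural markers to 25.34 to 32.05 CPM against 21.45 to 27.54 CPM. The part of these shifts in the results at 19 months was not tested.

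Receptor forms were read from the authors' LeafCutter analysis of SYN, which groups introns that share a splice site into clusters and fits the share of each intron per age. The columns named young, adult and old were taken as 3 weeks, 5 months and 19 months. The authors' deposited table gives fitted shares without values per library, so no spread can be set beside them. In each comparison the authors' deposited table listed 10 clusters of these genes, 8 of them tested, and 0 passed an adjusted p under 0.05. At an unadjusted p under 0.05 the authors' deposited table had 2 between 5 months and 3 weeks and 1 in each comparison with 19 months. The share of all clusters at that unadjusted threshold is not given here, so these counts cannot be set against it. At an adjusted p under 0.05, 6.61% of all clusters in the authors' deposited table passed between 5 months and 3 weeks. The shares were 4.81% between 19 months and 3 weeks and 0.768% between 19 and 5 months. The Bdnf cluster and 1 of 2 Vgf clusters were not tested, and Ntf3, Ngfr and Nrn1 had no cluster.

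At the fork shown in the Ntrk2 sequences, the truncated form took the larger share at every age. In the authors' deposited table, the junction to the truncated exon (chr13:58878263-58932022) held 66.2% of the cluster at 5 months and 55.4% at 3 weeks, 10.8 percentage points more, at an unadjusted p of 0.0373 and an adjusted p of 0.180 from LeafCutter. The authors' deposited table for 19 against 5 months gave 61.4% and 66.2% for the same junction, at an adjusted p of 0.592. In the authors' deposited table for 19 months against 3 weeks the values were 61.5% and 55.4%, at an adjusted p of 0.354. The summed astrocyte markers were 6574 to 7617 CPM at 5 months, 6757 to 9887 CPM at 3 weeks and 6278 to 7869 CPM at 19 months. Between 5 months and 3 weeks, 2 of 8 were called lower at 5 months, where 11.3% of all genes were lower. The part of astrocytes in the Ntrk2 shares was not tested.

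Ntrk3 was spliced mostly to the kinase form. The authors' deposited table gave the junction to the exon without kinase (chr7:78304427-78356026) 4.54% at 5 months and 14.9% at 3 weeks, the smallest p among these clusters (unadjusted p of 0.00576, adjusted p of 0.0693 from LeafCutter). For 19 months against 3 weeks the authors' deposited table gave 6.74% and 15.6%, at an adjusted p of 0.346, and for 19 against 5 months 7.84% and 4.51%, at an adjusted p of 0.672. The shares of the truncated forms of Ntrk2 and Ntrk3 thus differed in opposite directions between 5 months and 3 weeks, and neither difference passed the adjusted threshold.

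Within the kinase-coding part of Ntrk3, 5 introns joined the neighbouring exons with or without the long and short inserts printed above. The authors' deposited table gave the junction that skips both inserts 30.4% at 5 months and 39.6% at 3 weeks (adjusted p of 0.540), and 33.0% at 19 months and 38.9% at 3 weeks (adjusted p of 0.335). The junction that enters the long insert belongs to the same cluster, and in the authors' deposited table it held 14.6% at 5 months and 8.98% at 3 weeks, and 16.2% at 19 months and 7.72% at 3 weeks. A microexon of 24 bases in the extracellular part of Ntrk3 was almost always included, as the authors' deposited table gave its skipping junction 0.643% at 5 months and 0.741% at 3 weeks.

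In Sort1, the junction that skips the cassette exon had the largest share at every age. The authors' deposited table gave it (chr3:108354242-108356230) 64.3% at 5 months and 58.5% at 3 weeks (adjusted p of 0.761), and 65.7% at 19 months and 59.3% at 3 weeks (adjusted p of 0.613). A second Sort1 cluster held acceptor sites 3 bases apart, and in the authors' deposited table the upstream acceptor took 63.6% at 5 months and 65.3% at 3 weeks (adjusted p of 0.908), and 56.8% at 19 months and 64.2% at 5 months (adjusted p of 0.640).

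The remaining clusters concerned the start of the transcript, in the 5′ UTR. For Ntrk2, the authors' deposited table gave the splice from the upstream start (chr13:58806853-58808384) 11.2% at 19 months and 23.5% at 5 months (unadjusted p of 0.0145, adjusted p of 0.200), and 11% at 19 months and 19.6% at 3 weeks (unadjusted p of 0.0213, adjusted p of 0.152). For Vgf, the authors' deposited table gave the longer intron (chr5:137030462-137030965) 88.9% at 5 months and 78.3% at 3 weeks (adjusted p of 0.390), and 84.3% at 19 months and 78.5% at 3 weeks (adjusted p of 0.677). For 19 against 5 months the authors' deposited table gave it 84.0% and 88.9% (adjusted p of 0.728).

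The authors' deposited DIEGO tables, a second test of junctions on the same libraries, held 70 junctions of 5 of the genes between 5 months and 3 weeks. Of the 70, the authors' deposited table had 1 with a q-value under 0.05, against 1.48% of all junctions, and the authors did not mark it as significant. It is the first intron of Sort1 (chr3:108284441-108308476, q of 0.0464 in the authors' deposited table). Of 69 junctions between 19 months and 3 weeks, the authors' deposited table had 0 under that threshold, against 0.690% of all junctions. Of 68 junctions between 19 and 5 months, the authors' deposited table had 0 as well, against 0% of all junctions. In both comparisons 0 of these junctions had an unadjusted p under 0.05. The share of all junctions at an unadjusted p under 0.05 is not given here.

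**Figure D3:**
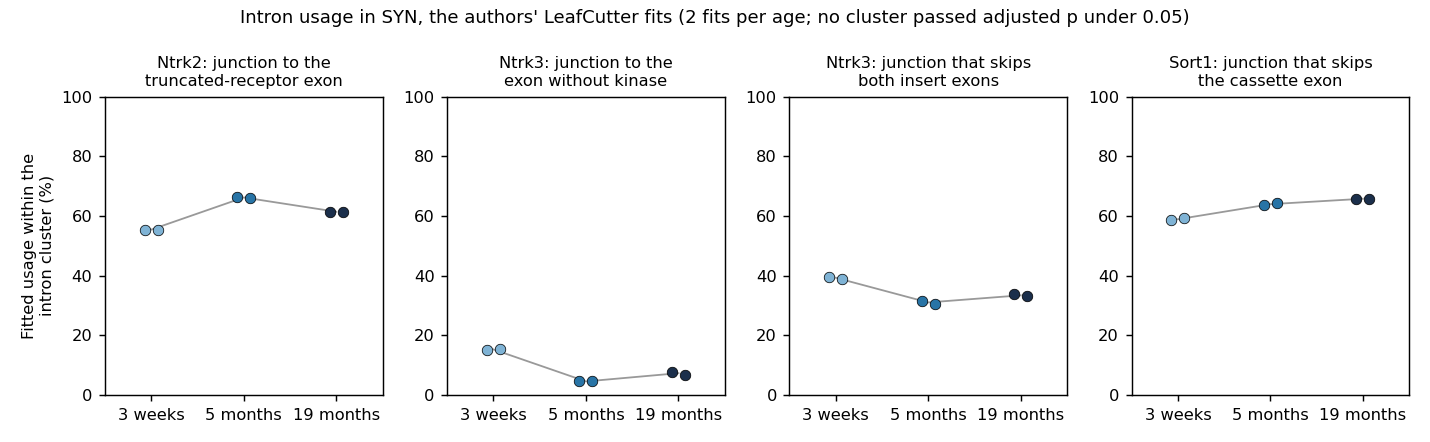
Share of an intron in its cluster (%) in SYN at 3 weeks, 5 months and 19 months, from the authors' deposited LeafCutter table; each age has a point from each of the 2 fits it entered, and lines join the means. The truncated Ntrk2 junction is highest at 5 months, at 66.2%, the Ntrk3 junction to the exon without kinase is lowest there, at 4.51% and 4.54%, and no cluster passed an adjusted p under 0.05.

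Other genes of the pathway were taken from 4 lists of 78 genes. Among other receptors, co-receptors and sortilin relatives, 9 of 11 were higher in 5 months SYN than in TH, 1 was lower and 1 was not called, with a median log2 fold change of 1.01 against -0.05 over all genes tested, of which 24.5% were higher and 25.6% lower. Lingo1, a p75NTR co-receptor, averaged 249 ± 34.4 CPM in SYN and 94.4 ± 7.14 CPM in TH (SD, n = 4 each; log2 fold change 1.41, edgeR adjusted p = 2.54e-08). Islr2, which binds Trk receptors, was higher by 1.39 on the log2 scale, Sorcs2, a p75NTR partner for proneurotrophins, by 1.21 and Slitrk5, a TrkB co-receptor, by 1.16. The gene called lower was Nradd, a p75NTR relative with at most 25 counts per library, at -2.53.

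Of the genes that process or sort proneurotrophins, 7 of 10 were tested in that comparison, 5 were higher in SYN, 0 were lower and 2 were not called (median 0.56). Cpe, a sorting receptor for proBDNF, averaged 1413 ± 56.3 CPM in SYN and 486 ± 46.3 CPM in TH (SD, n = 4 each; log2 fold change 1.55, edgeR adjusted p = 2.12e-09). The proprotein convertases Pcsk2, Furin and Pcsk6 were higher by 0.77, 0.70 and 0.56 on the log2 scale.

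Among 42 adaptors and kinases downstream of Trk receptors, 20 were higher in SYN, 6 were lower and 16 were not called, with a median log2 fold change of 0.28; over all genes 24.5% were higher and 25.6% lower. Shc3, a neuronal Shc adaptor, averaged 213 ± 17.7 CPM in SYN and 54.6 ± 5.20 CPM in TH (SD, n = 4 each), a log2 fold change of 1.97 (edgeR adjusted p = 5.61e-10). Rapgef1, an exchange factor for Rap1, was higher by 1.45 and the kinase gene Akt1 by 1.23. Rps6ka3, a kinase gene of the MAP kinase pathway, was lower at -0.61. Of 15 p75NTR signalling genes, 4 were higher, 1 was lower and 10 were not called, with a median of -0.00, so the share called higher was near the 24.5% of all genes. Arhgdia was higher by 0.76 and Mapk8, which encodes the kinase JNK1, was lower at -0.79.

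Between 5 months and 3 weeks SYN, 1 of 10 tested co-receptor genes was higher, 3 were lower and 6 were not called, where 13.3% of all genes were higher and 11.3% lower. Kidins220, a scaffold phosphorylated by Trk receptors, was higher by 0.41 on the log2 scale, and Lingo1, Islr2 and Rtn4r were lower, at -0.51, -0.53 and -0.55. Of 7 processing genes, Hap1 was higher by 0.42, and Plat, which encodes tissue plasminogen activator, and Cpe were lower, at -0.97 and -0.33. Of 42 Trk signalling genes, 6 were higher, 5 were lower and 31 were not called, shares close to the 13.3% and 11.3% of all genes. Camk4, a kinase of the transcription factor CREB, averaged 158 ± 7.38 CPM at 5 months and 302 ± 40.9 CPM at 3 weeks (SD, n = 4 each; log2 fold change -0.92, edgeR adjusted p = 1.15e-07), and Nras was lower at -0.90.

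Of 15 p75NTR signalling genes, 1 was higher at 5 months than at 3 weeks, 3 were lower and 11 were not called. Over all genes tested, 13.3% were higher and 11.3% lower in that comparison. Mapk10, which encodes JNK3, was higher by 0.45, and Rhoa, Mapk8 and Maged1 were lower, at -0.53, -0.47 and -0.36. Between 19 months and 3 weeks the counts were 1 higher and 1 lower of 10 co-receptor genes, 2 and 2 of 7 processing genes, 3 and 5 of 42 Trk signalling genes, and 0 and 5 of 15 p75NTR signalling genes. Over all genes tested 10.0% were higher and 9.44% lower between 19 months and 3 weeks, and the shares of the co-receptor and Trk signalling lists were near these. Those of the processing and p75NTR signalling lists were not, but they rest on few genes and were not tested as lists. Pcsk1, a convertase of the regulated secretory pathway, was among the higher ones, at 0.67. Between 19 and 5 months 0 of the 74 tested genes of the 4 lists were called by edgeR, against 0.300% of all genes, and DESeq2 called 1. In edgeR 11 of the 74 had an unadjusted p under 0.05. The share of all genes at that threshold is not given here, so the 11 cannot be set against it.

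**Figure D4:**
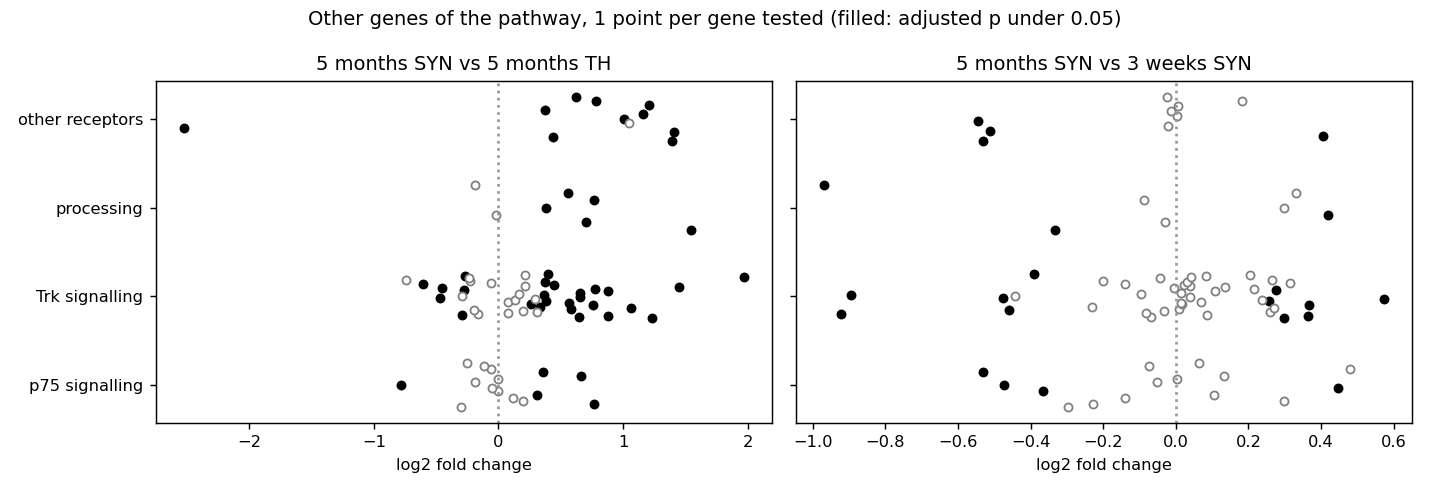
Log2 fold change of each tested gene of the 4 pathway lists, for 5 months SYN over 5 months TH (left) and 5 months SYN over 3 weeks SYN (right); filled points have an edgeR adjusted p under 0.05, and the vertical spread within a list carries no meaning. On the left 9 of 11 co-receptor genes and 20 of 42 Trk signalling genes are filled above 0, and on the right the filled points lie on both sides.

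To describe which genes shared these patterns, mean log2 levels in the 4 groups were centred per gene, and the genes nearest to each member were found among 9332 genes by the root mean square difference over the 4 groups. Nearest to Bdnf were Mfsd4a (0.0075 log2 units), Ephb1 and Arid1b, and nearest to Ntrk2 were Gpr85 (0.013), Msi1 and Camta2. Ntrk3 was nearest to Abhd16a (0.0093), Lsm6 and Kcnb2, and Sort1 to Fam3c (0.016), Mlec and Mageh1. Nrn1 lay farther from its nearest genes, Cpm (0.045), Dpysl5 and Jam3, and Vgf from Rpsa (0.046), which has near-identical pseudogene copies and is uncertain, Tmem151b and Shc3. Ntf3 and Ngfr were below the mean of 5 CPM asked for. With 4 groups and 9332 candidates, close matches are common, and these are descriptions.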

How the data were processed

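Gene counts are the authors' deposited integer counts for 48709 genes in 16 libraries of mouse cortex. Per the labels' protocols, libraries were made from 10 ng of RNA with a stranded total RNA kit that depletes 18S and 28S rRNA. The submitters' processing notes name bcl2fastq 2.20.0.422, cutadapt 1.18, Trimmomatic 0.38, featureCounts and build GRCm38.p6; nothing is stated of the aligner, strand setting or annotation. LeafCutter tables, as deposited by the authors, list p-values for intron clusters and, for each intron, its fitted fraction of the cluster at each age and a natural log effect size that is not used here. The authors' deposited DIEGO tables hold p-values, q-values and a log-scale abundance change score whose base is not given.

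Low counts were removed with filterByExpr, libraries were scaled by TMM, and edgeR 4.0.16 gave the tests (robust quasi-likelihood F test, Benjamini-Hochberg over all genes tested, call at adjusted p under 0.05), on 8 libraries for SYN against TH and on the 12 SYN libraries for ages. CPM per library use TMM over all 16 libraries. A standard error is the fold change divided by the root of F, and intervals are at 95%. Sequences and lengths of the printed exons are from GENCODE vM21, and introns run from start plus 1 to end minus 1 of the deposited LeafCutter positions. The gene lengths behind CPM per kilobase were deposited with the counts. Alternatives used DESeq2 1.42.0 under R 4.3.3, and Python 3.11.15 with pandas 2.3.3 read the splicing tables. The fits were tested on simulated data, but no setting or outcome is given here, so no result above rests on that. Ntf3 rests on 13 to 52 counts per library and Ngfr on 34 to 90, which limits their precision.

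The 8 genes and all lists were chosen with earlier results of these data known. All 8 genes are named; of each pathway list, the 4 called genes with the highest and the 4 with the lowest log2 fold change could be named. Some genes of these lists are not reported here. Bex3 is listed under an older name and was matched by gene identifier. No libraries were copies of each other. Opposite-strand genes that overlap exons of Bdnf and Sort1 had at most 7 and 5 counts. The names of the 5 months SYN and TH columns carry matching numbers. Whether a matching number marks the same tissue preparation is not stated in the labels. Not every same-number pair deviated together, which does not show that the tissue was different. Replicates were not paired in the reported fits, and a fit with the replicate number as a block is given below.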

Additional observations from a re-analysis of the deposited data

Results flagged for a closer look

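In 32 sets of 4 libraries (8 genes in 4 groups), 2 held a library far from the other 3 by Dixon's criterion, and chance flags about 1 in 20 such sets. Ntrk2 stood at 630.7 CPM in 5 months SYN replicate 4, the library with the highest nuclear RNA among SYN, against 686.6 to 696.9 CPM in the other 3; without it the log2 fold change of SYN over TH was 0.84, against 0.82 with it. Nrn1 stood at 47.34 CPM in 5 months SYN replicate 3, against 55.81 to 57.5 CPM in the other 3.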

How the results depend on the processing

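Of 600 recomputed log2 fold changes of the 8 genes, 555 kept direction and call, 22 lost the call, 1 gained it and 22 changed sign, the last all among uncalled genes near 0. For SYN against TH, 6 genes stayed called higher with any 1 library left out; 3 remained at a fold of at least 2, and upper-quartile scaling called 1 gene lower (Nrn1). For 5 months against 3 weeks, 1 gene was called higher in fits on only the 8 libraries compared, on all 16, and at a fold of at least 2, and 1 to 2 with a library left out. For 19 months against 3 weeks, 1 was called higher in fits on the 8 or the 16 libraries, 0 at a fold of at least 2, and 0 to 2 with a library left out; 0 were called lower at a fold of at least 2. The shares of all genes at a fold of at least 2 are not given here. At q under 0.01, 0 DIEGO junctions remained between 5 months and 3 weeks. Sign changes between 5 months and 3 weeks were those of Vgf (0.0123 with upper-quartile scaling, 0.0050 on 8 libraries, 0.0563 without both libraries that stood apart, -0.12 to 0.0805 with 1 library left out) and Ntrk3 (-0.0236 to 0.11 with 1 left out). Between 19 and 5 months they were those of Bdnf (0.0031 without the mitochondrial genome, 0.0028 on 8 libraries, 0.0076 on 16, 0.15 without both libraries that stood apart, -0.19 to 0.11 with 1 left out) and Sort1 (-0.0376 to 0.0831 with 1 left out). The cause was not tested. With the replicate number as a block, no call of the 8 genes changed, uncalled Vgf stood at 0.0109 for 5 months against 3 weeks and uncalled Sort1 at -0.0038 for 19 against 5 months. The block gave 4152 higher and 4402 lower genes for SYN against TH, where it was 4248 and 4456 without it; SYN and TH libraries numbered 1 and 4 were closest to each other (correlations 0.0884 and 0.144), those numbered 2 and 3 were not (0.0200 and 0.0176). Over all genes, calls between 19 and 5 months ranged from 0 to 145 higher and 0 to 188 lower across settings, against 20 and 26 as reported. Ntf3 and Ngfr are limited by depth.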
